A study of Mus musculus with 8 samples.

Results

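The comparison set knee articular cartilage from limbs whose anterior cruciate ligament had been transected (ACLT) against cartilage from the other, uninjured hind limb of the same mice, 7 days after the surgery. All 8 libraries of the series entered it, 4 from ACLT limbs and 4 from control limbs. The antibody that the mice received was a term of the model, so that the limb difference was an average over both treatments. The mice were of the C57BL/6J and Col1-eGFP lines by the study's methods, without a line given per pool. They were 4 to 5 months old and of both sexes, and all received a subcutaneous antibody at 10 mg/kg, given 2 times a week. In the placebo (PLA) groups this was REGN1945, an antibody used as the placebo treatment, and in the GDF8 Ab groups it was REGN647, which binds growth differentiation factor 8 (GDF8, myostatin). The 4 groups were PLA control, GDF8 Ab control, PLA ACLT and GDF8 Ab ACLT, with 2 libraries each, called pools A and B. The labels of the control samples name cartilage as the tissue but quadricep in their treatment entry, and their levels of cartilage genes are given below. The study's methods have RNA of 4 mice joined in each pool, while the series text gives 4 mice per treatment, so the number of mice behind a pool was not settled here. A pool counts as 1 replicate, so the p-values rest on the spread between pools and not between mice. As the model had no interaction term, this spread also holds any difference of the limb effect between the antibodies. The control limbs were not untouched animals but the opposite limbs of injured, antibody-treated mice. No antibody-free mouse and no sham-operated limb was part of the comparison.

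Articular cartilage is a tissue of chondrocytes in a matrix of type II collagen and aggrecan, without blood vessels. After rupture of the ligament the joint is loaded abnormally and its synovium is inflamed, and such injuries are known to lead to post-traumatic osteoarthritis. Matrix proteases (the ADAMTS and MMP families) cut the aggrecan and collagen, while repair tissue is laid down by fibroblasts that make type I, III, V and VI collagens. GDF8 is a ligand of the TGF-β family that is made mainly by skeletal muscle and limits its growth.

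The values were CPM, the reads of a gene per 1e+06 reads assigned to genes. They were tested as log2 of reads at the median depth of 20.1 M (20.1 times 1e+06 reads) plus 1 read. Of the 20539 genes 17401 averaged 10 reads or more and were tested. The depth read from the steps between low CPM values was 16.4 to 28.1 M reads per library. The libraries held RNA beyond chondrocytes. The chondrocyte markers together took 0.414 to 0.908% of CPM, the erythroid markers 7.25 to 13.7% and the neutrophil markers 2.79 to 4.67%, and no tested gene of these lists was at 0 in every library. Col2a1, the type II collagen of hyaline cartilage, was at 283, 1654, 224 and 656 CPM in the control libraries and at 346, 229, 196 and 168 CPM in the ACLT libraries. Here and below, 4 values are in the order PLA pool A, PLA pool B, GDF8 Ab pool A and GDF8 Ab pool B. The 38 skeletal muscle fiber markers took 4.10, 9.39, 2.24 and 3.80% of CPM in the control libraries and 0.12, 0.0702, 0.321 and 4.37% in the ACLT libraries. This share was thus lower in 3 of the 4 ACLT libraries than in every control library, and GDF8 Ab ACLT pool B lay within the control range. In bulk RNA, fewer cells of a type and less RNA per cell cannot be told apart.

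**Figure D1:**
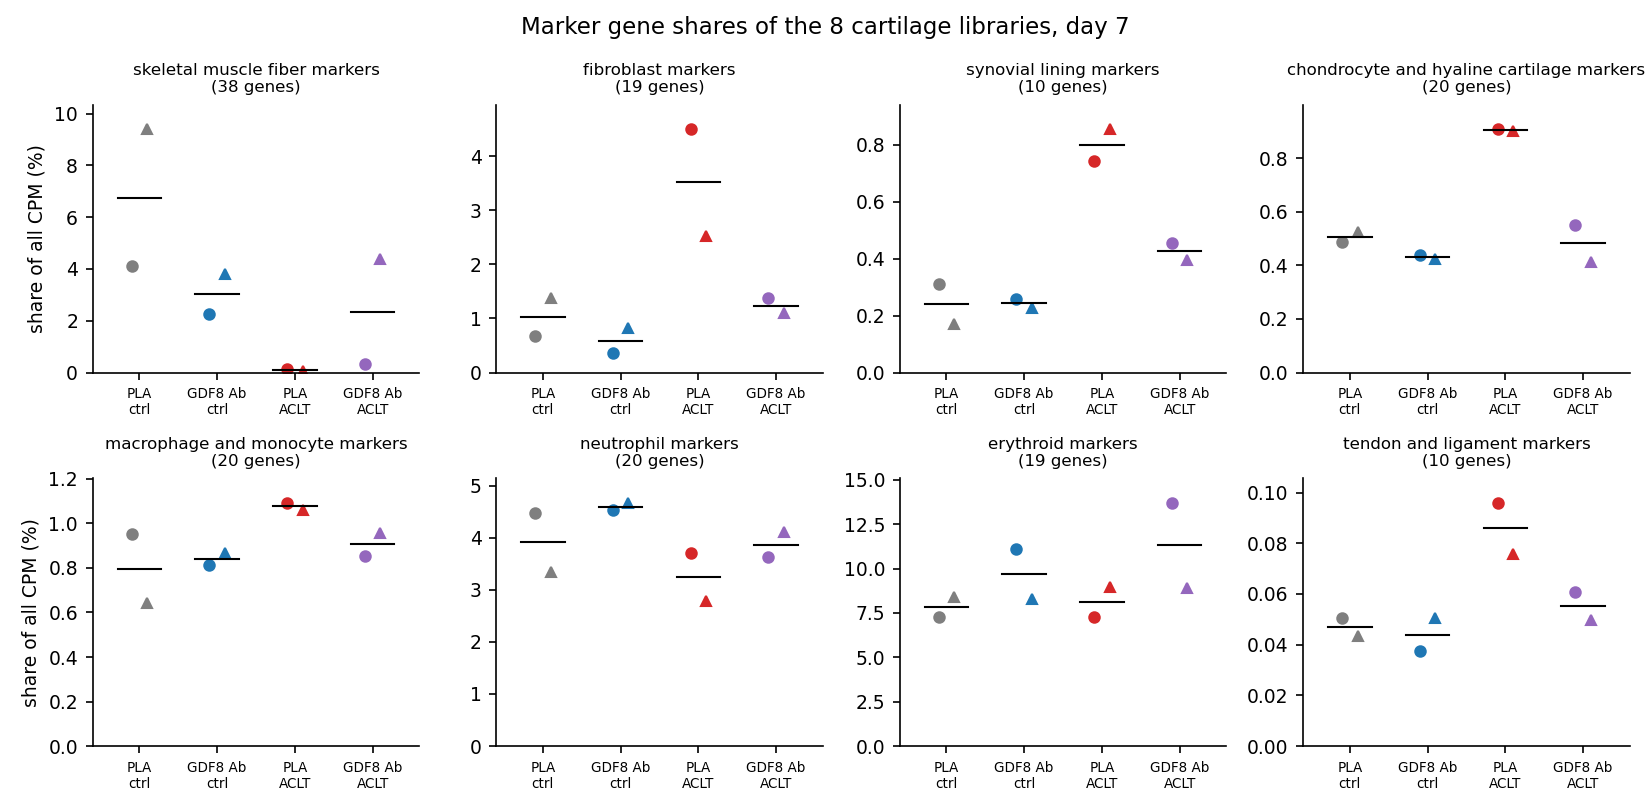
Share of all CPM (%) taken by 8 marker lists in each library, with circles for pool A, triangles for pool B and a line at the mean of each group; every axis starts at 0. Muscle fiber markers were at 2.24 to 9.39% in the control libraries and at 0.0702 to 4.37% in the ACLT libraries, while the synovial lining share was higher in all 4 ACLT libraries than in all 4 control libraries. Prg4, which is also in the chondrocyte list, made up most of the synovial lining share in each library.

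Across the 17401 genes, 1441 rose in the ACLT limbs and 347 fell (limma, Benjamini-Hochberg adjusted p under 0.05), which is 8.28% and 1.99% of the genes tested. In 2041 genes (11.7%) all 4 ACLT libraries lay above all 4 control libraries, and in 611 (3.51%) they lay below. Both the call and the separation were found in 1269 of the rises and 218 of the falls. At least a 2-fold difference was seen in 807 of the rises and 122 of the falls, and the median log2 fold change was 1.09 among the rises and -0.64 among the falls, against 0.05 over all genes. A positive log2 fold change was found in 55.0% of all genes tested. Rises made up 80.6% of the calls, but 69.5% once the libraries were scaled to each other by the trimmed mean of their log2 ratios, which called 1544 rises and 679 falls.

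The calls leaned on single libraries. The number of rises was 802 without PLA control pool A, 532 without PLA ACLT pool A and 500 without PLA ACLT pool B. The number of falls was 63, 34 and 29 without these libraries, 102 without GDF8 Ab ACLT pool A, 161 without GDF8 Ab control pool B and 1041 without GDF8 Ab ACLT pool B. Of the 1441 rises, 483 were called in each of the 8 fits that left out 1 library, and of the 347 falls, 19 were. Unless a lost call is given, each single gene described below as risen or fallen was called in all 8 of these fits. A fit that added the mean log2 level of the muscle fiber markers as a covariate called 83 rises (0.477% of the genes tested), all of them among the 1441, and 7 falls (0.0402%), of which 2 were among the 347. A call lost in this fit can come from a smaller estimate or from a larger standard error. Scx went from 1.71 ± 0.27 (SE) to 1.92 ± 0.44 on the log2 scale, and Actc1 from -4.74 ± 1.10 to -1.12 ± 0.82. Both lost their calls.

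**Figure D2:**
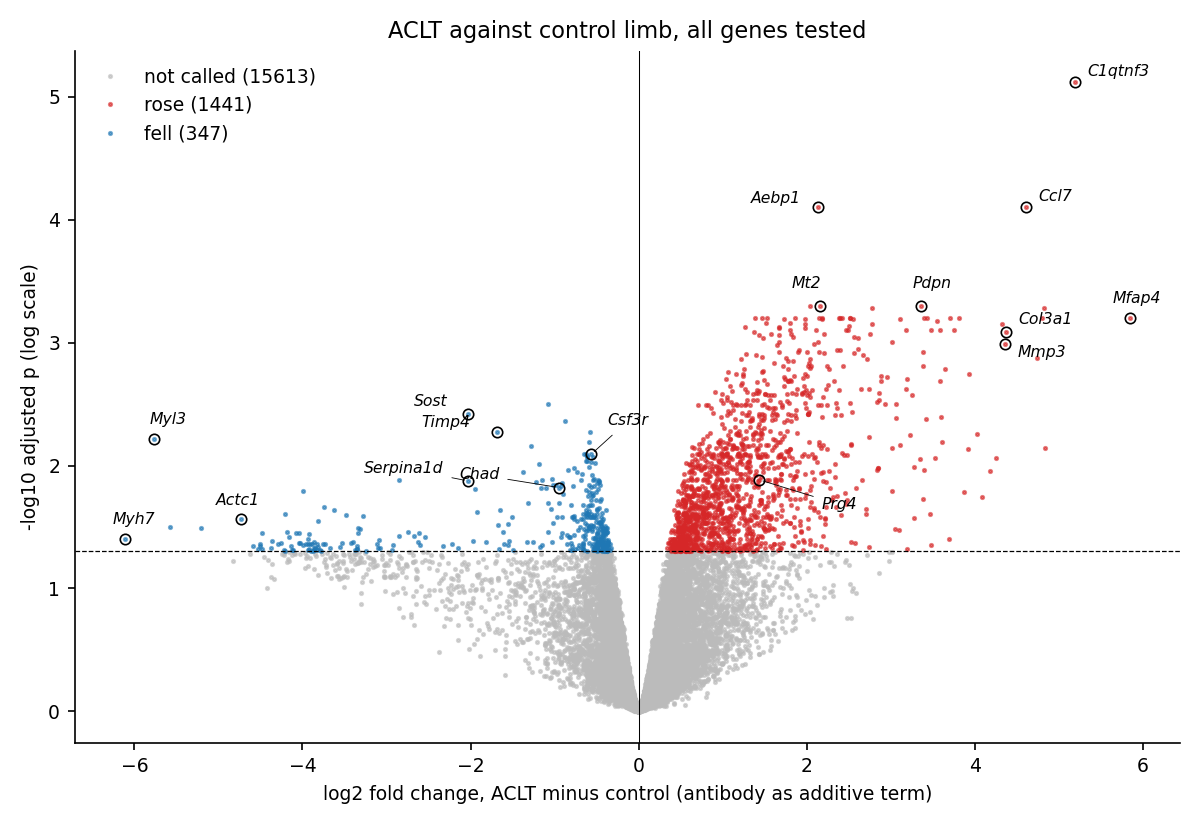
Log2 fold change of ACLT over control limbs (x) against -log10 of the adjusted p (y) for the 17401 genes tested, with the dashed line at an adjusted p of 0.05 and some of the genes described in the text ringed. The 1441 rises reach log2 fold changes of 5.84 (Mfap4), and the 347 falls reach the muscle gene Myh7 at -6.11.

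The rise with the smallest adjusted p was C1qtnf3, which encodes a secreted protein of the C1q and TNF-related family (chromosome 15, 10952418 to 10980236, mm39, as the table gives it). It was at 1.09, 1.53, 0.791 and 0.757 CPM in the control libraries and at 48.3, 55.7, 23.7 and 33.99 CPM in the ACLT libraries. Each ACLT library was far above the highest control library, and the fitted difference was 36.5-fold (log2 fold change 5.19 ± 0.20 (SE), adjusted p = 7.61e-06). The largest log2 fold change was that of Mfap4, a glycoprotein of elastic microfibrils, at 0.0994, 0.285, 0 and 0.101 CPM in control libraries and 21.2, 12.9, 2.39 and 5.97 CPM in ACLT libraries (log2 fold change 5.84 ± 0.52 (SE), adjusted p = 0.000625). In the control libraries Mfap4 was close to undetected, so the size of this fold change depends on the added read, as do those of AW551984, Fosl1, Tpsb2 and Myh7 below, which also had libraries at 0. Lrrc15, a membrane protein of matrix-making fibroblasts, went from 1.54, 0.356, 0.426 and 0.707 to 25.7, 27.02, 12.6 and 15.7 CPM (log2 fold change 4.80 ± 0.40 (SE), adjusted p = 0.000625). Ptn, the heparin-binding growth factor pleiotrophin, went from 1.69, 0.89, 0.547 and 1.46 to 46.6, 41.7, 9.77 and 12.5 CPM (log2 fold change 4.33 ± 0.41 (SE), adjusted p = 0.000707), with the PLA libraries highest. Prnd, which encodes the prion-like protein doppel, was at 0.651, 0.315, 0.303 and 0.195 CPM and 15.3, 31.1, 10.04 and 2.31 CPM (log2 fold change 4.75 ± 0.53 (SE), adjusted p = 0.00134). AW551984 stood at 0.696, 0.0356, 0 and 0.353 CPM and 5.38, 11.4, 2.93 and 4.52 CPM (log2 fold change 4.83 ± 0.80 (SE), adjusted p = 0.00718). All 6 separated the limbs in every library, and all but AW551984 (log2 fold change 4.67, adjusted p = 0.178) were also called with the muscle level as a covariate.

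The 10 genes with the smallest adjusted p, ties being taken in order of the unadjusted p, were C1qtnf3, Aebp1, Ccl2, Ccl7, Gpnmb and 5 more. Aebp1, the chemokines and Gpnmb are described with their groups below. Mt2, a metal-binding metallothionein, was at 9.54, 7.90, 11.3 and 9.59 CPM in control and 31.7, 44.1, 56.2 and 42.6 CPM in ACLT libraries (log2 fold change 2.16 ± 0.16 (SE), adjusted p = 0.000508). It was higher in each GDF8 Ab ACLT pool than in PLA ACLT pool A. Cbr2, a carbonyl reductase, was at 14.7, 16.2, 8.21 and 11.9 CPM in control and 65.3, 67.3, 34.7 and 44.4 CPM in ACLT libraries (log2 fold change 2.04 ± 0.15 (SE), adjusted p = 0.000508). Fndc1, a protein with fibronectin type III domains, was at 19.2, 10.3, 6.20 and 10.2 CPM in control and 104, 97.3, 49.8 and 56.6 CPM in ACLT libraries (log2 fold change 2.78 ± 0.22 (SE), adjusted p = 0.000521). Pdpn, the membrane glycoprotein podoplanin of lining fibroblasts and osteocytes, was at 2.83, 1.42, 1.09 and 1.01 CPM in control and 18.3, 23.2, 11.2 and 11.9 CPM in ACLT libraries (log2 fold change 3.36 ± 0.25 (SE), adjusted p = 0.000508). Dbn1, the actin-binding protein drebrin, was at 6.61, 5.02, 4.01 and 4.44 CPM in control and 30.3, 30.99, 15.3 and 16.4 CPM in ACLT libraries (log2 fold change 2.15 ± 0.17 (SE), adjusted p = 0.000625). These 5 were also called with the muscle level as a covariate.

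**Figure D3:**
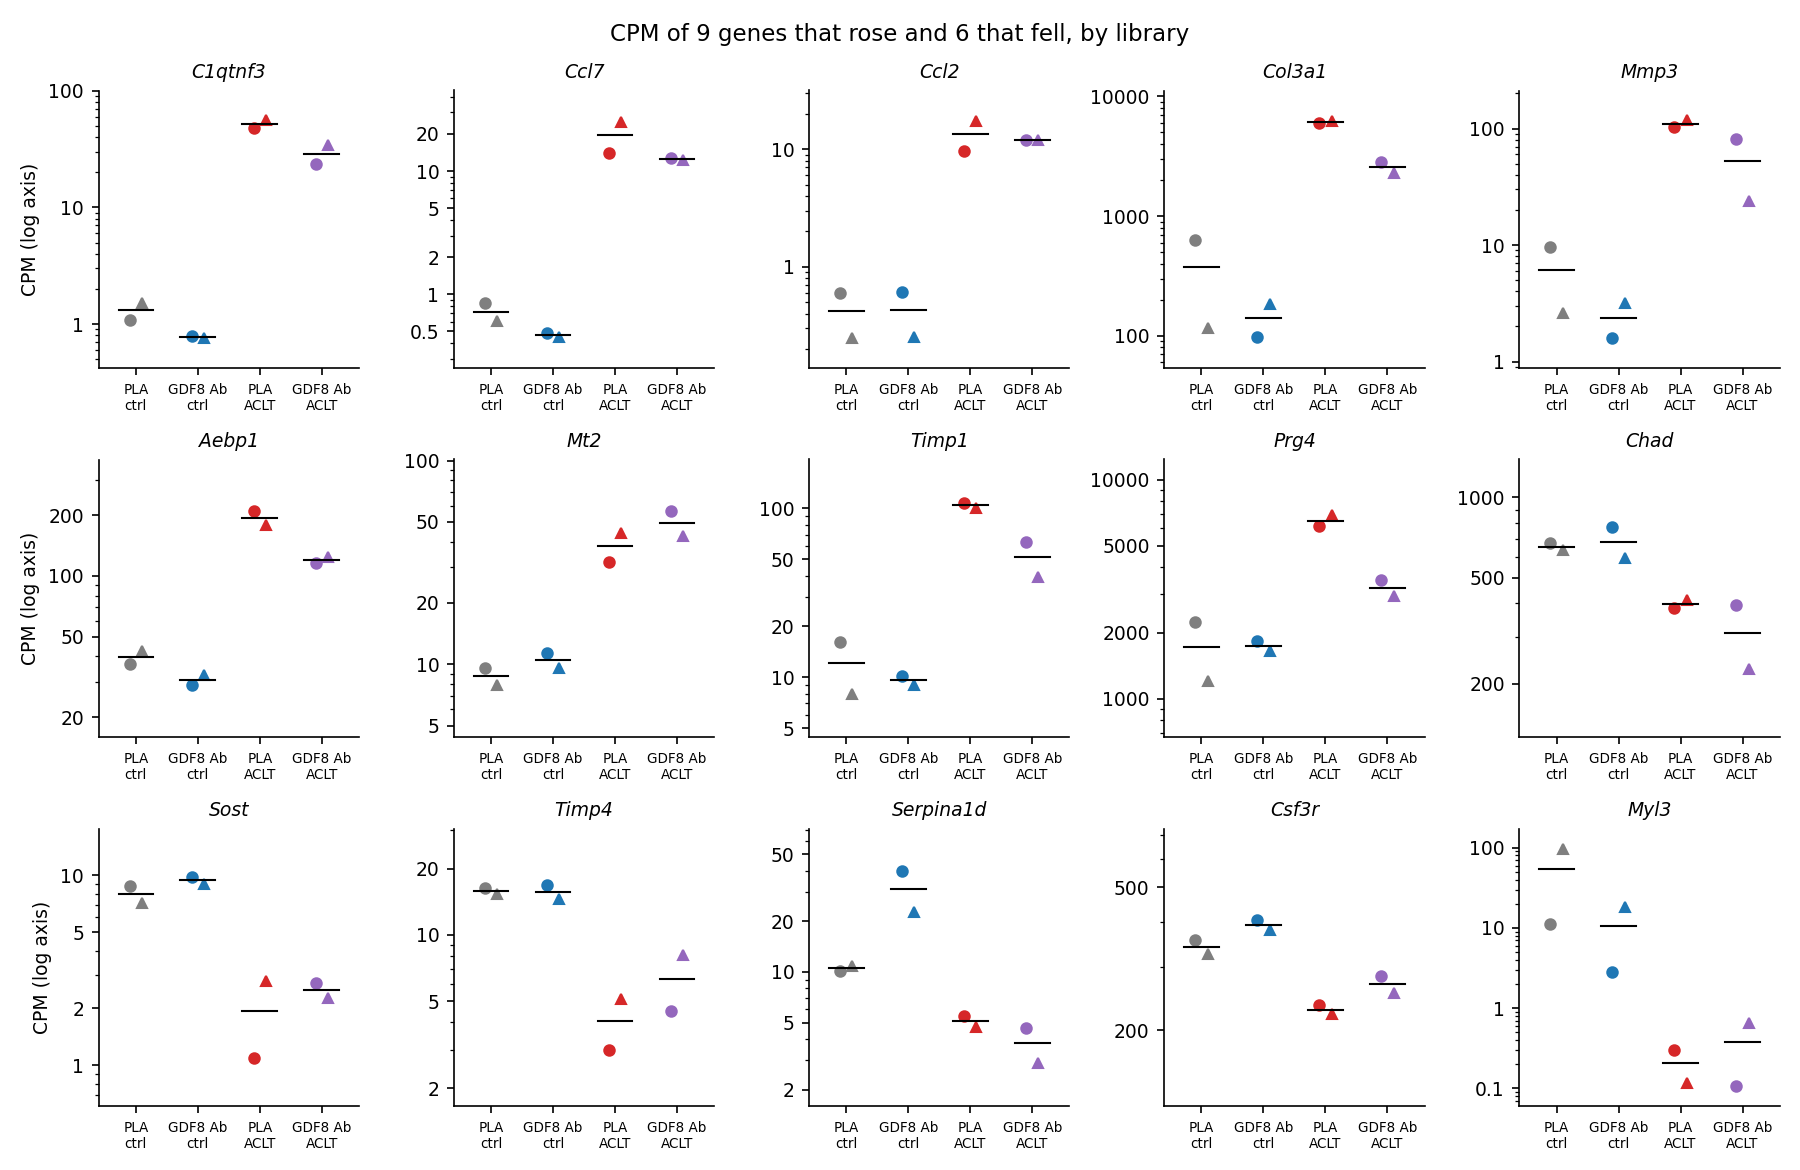
CPM (log axes) of 9 genes that rose and 6 that fell in each of the 8 libraries, with circles for pool A, triangles for pool B and a line at each group's mean. In each of the 15 genes all 4 ACLT libraries lie on one side of all 4 control libraries, and in Mt2 the GDF8 Ab ACLT mean lies above the PLA ACLT mean.

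**Figure D4:**
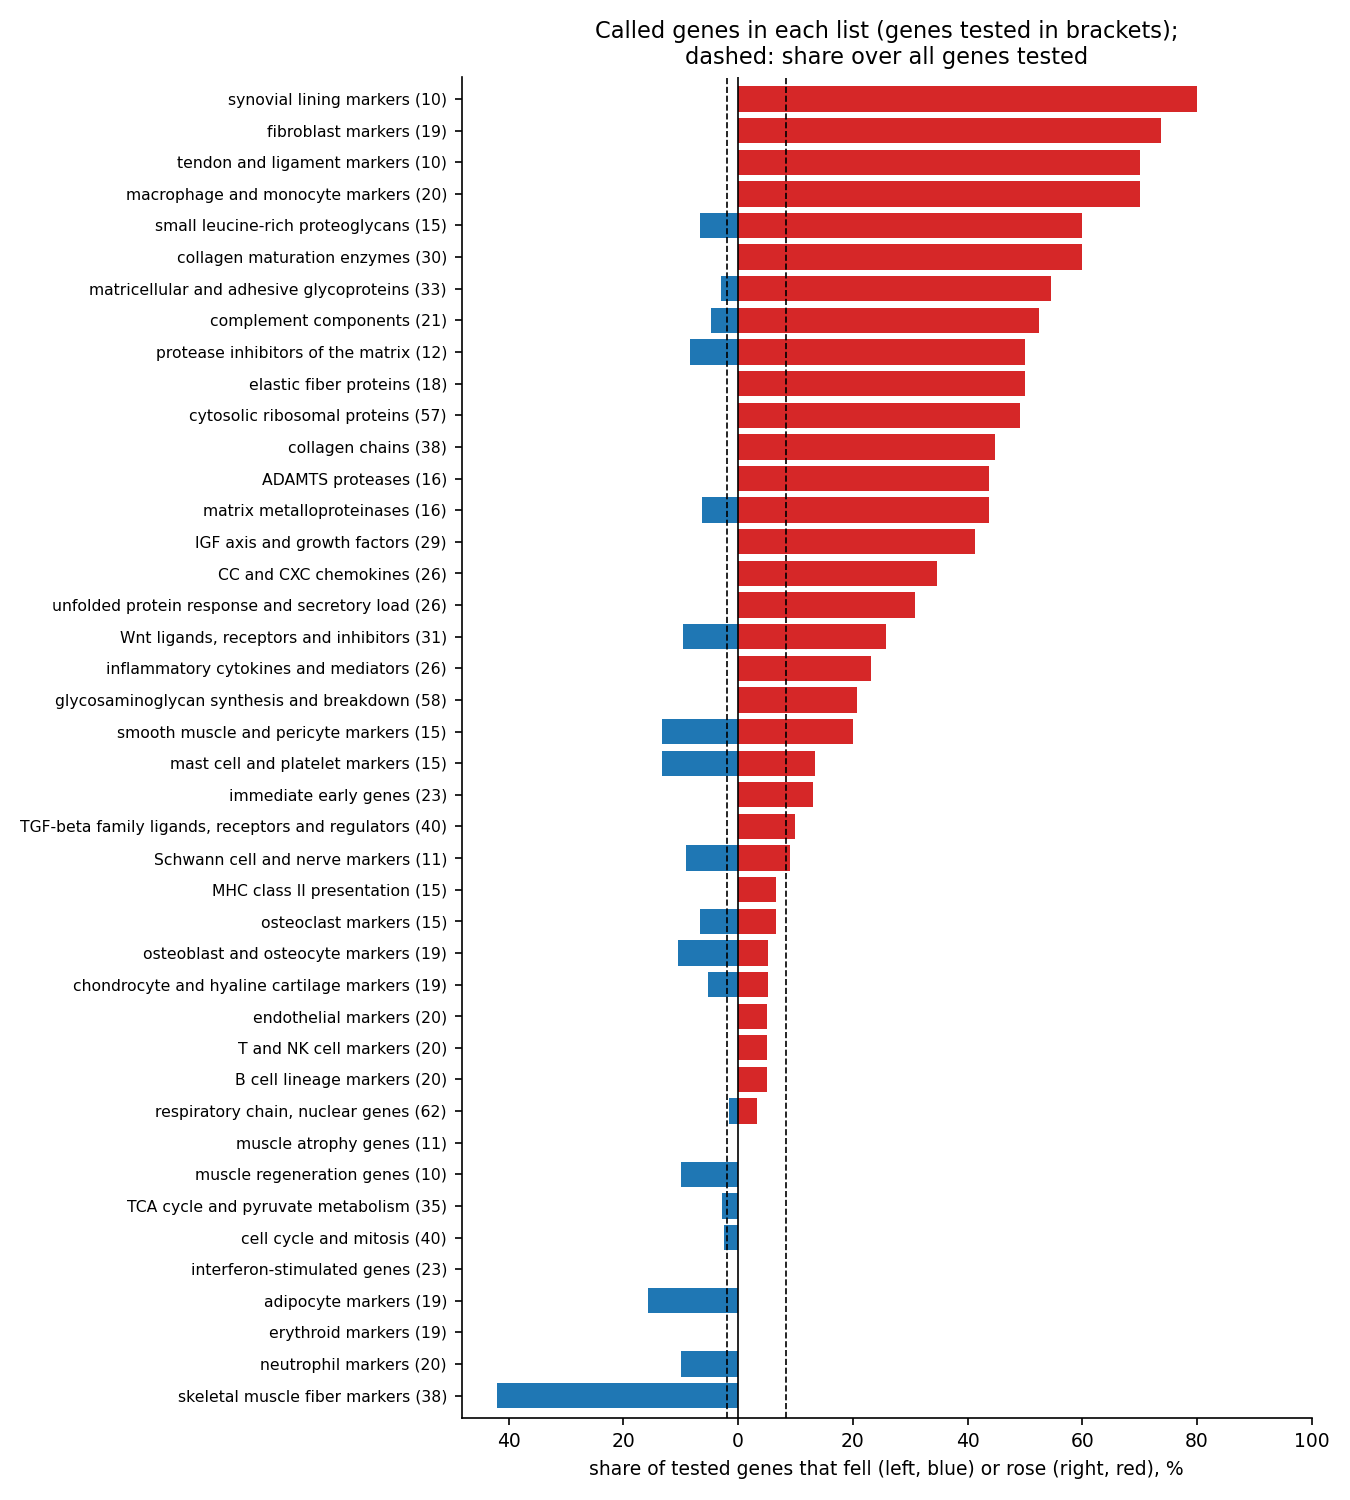
Percent of the tested genes of each of the 42 lists that rose (right) and fell (left) in the ACLT limbs, with dashed lines at the shares over all genes (8.28% and 1.99%). The synovial lining (80.0%), fibroblast (73.7%), macrophage and tendon markers (70.0% each) have the largest shares of rises, and the muscle fiber markers the largest share of falls (42.1%).

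Some of the collagen chain genes rose, among them those of types III and VI, while the type I chains and the type II, IX, X and XI chains of cartilage did not pass the test. Of 38 collagen chain genes tested, 17 rose and 0 fell, with a median log2 fold change of 1.16 against 0.05 over all genes. Col3a1, the type III collagen of young repair tissue, was at 628, 116, 96.8 and 183 CPM in control and 5932, 6209, 2830.4 and 2298 CPM in ACLT libraries (log2 fold change 4.38 ± 0.44 (SE), adjusted p = 0.000819). The control values were close to each other apart from PLA pool A, and no control library reached the lowest ACLT library. Type VI collagen forms the fine filaments around cells, and its main chains rose: Col6a1 by 2.39, Col6a2 by 2.38 and Col6a3 by 2.56 on the log2 scale, with adjusted p of 0.000625, 0.000625 and 0.000898. Col5a3, a chain of the fibril-regulating type V collagen, was at 38.5, 25.5, 25.1 and 29.98 CPM in control and 244, 301, 113 and 106 CPM in ACLT libraries (log2 fold change 2.55 ± 0.23 (SE), adjusted p = 0.000639). Col1a1, the main collagen of bone and scar, was not called, with 2138, 7284, 1301 and 3616 CPM in control and 17912, 6874, 4119 and 2744 CPM in ACLT libraries (log2 fold change 1.06 ± 0.49 (SE), adjusted p = 0.193), where PLA control pool B was above both GDF8 Ab ACLT pools. The log2 fold change of Col1a2, its partner chain, was 1.02 (adjusted p = 0.164). With the muscle level as a covariate the list's median was 0.72 and 6 of the 17 rises were called.

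Enzymes that modify and cross-link collagen also rose. Of 30 tested, 18 rose and 0 fell, at a median of 1.00. With the muscle level as a covariate 2 of these were also called, and the list's median was 0.59. P4ha3, a prolyl hydroxylase subunit that stabilises the triple helix, went from 3.78, 1.25, 1.09 and 1.62 to 39.5, 35.2, 18.8 and 14.1 CPM (log2 fold change 3.82 ± 0.33 (SE), adjusted p = 0.000625). Pcolce, which enhances removal of the procollagen tail, was at 75.1, 58.7, 48.7 and 59.1 CPM in control and 367, 319, 184 and 144 CPM in ACLT libraries (log2 fold change 1.98 ± 0.18 (SE), adjusted p = 0.000639). Loxl2, a cross-linking lysyl oxidase, was at 10.5, 4.95, 7.04 and 8.51 CPM in control and 44.9, 51.2, 29.97 and 24.8 CPM in ACLT libraries (log2 fold change 2.27 ± 0.27 (SE), adjusted p = 0.00164). P3h4, part of a collagen-modifying complex, rose by 1.25 on the log2 scale (adjusted p = 0.00164).

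Among 33 matricellular and adhesive glycoproteins 18 rose and 1 fell, at a median of 1.13. With the muscle level as a covariate 4 of these rises were called, and the list's median was 0.64. The fall was Thbs1 (thrombospondin-1, -0.69, adjusted p = 0.0314), which was called in 3 of the 8 fits that left out a library. Aebp1, a collagen-binding protein needed for connective tissue strength, was at 36.7, 42.5, 28.7 and 32.4 CPM in control and 209, 179, 116 and 124 CPM in ACLT libraries (log2 fold change 2.13 ± 0.12 (SE), adjusted p = 7.95e-05). Postn, the matricellular protein periostin, was at 44.04, 20.2, 24.3 and 45.99 CPM in control and 368, 396, 134 and 154 CPM in ACLT libraries (log2 fold change 2.89 ± 0.36 (SE), adjusted p = 0.00206). Its log2 difference was 3.67 under PLA and 2.10 under GDF8 Ab, and 2.20 (adjusted p = 0.0913) with the muscle level as a covariate. Cthrc1, a secreted protein of activated fibroblasts, was at 7.36, 15.6, 2.62 and 7.52 CPM in control and 133, 99.5, 55.4 and 59.5 CPM in ACLT libraries (log2 fold change 3.55 ± 0.33 (SE), adjusted p = 0.000661). Fbln2 (fibulin-2) rose by 1.86 and Ccn3, a matricellular CCN protein, by 1.98 on the log2 scale (adjusted p = 0.000625 and 0.000707).

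Of 18 elastic fiber genes 9 rose and 0 fell, at a median of 0.81. Elastin itself (Eln) was at 12.8, 12.9, 8.09 and 8.78 CPM in control and 53.3, 53.6, 18.8 and 22.4 CPM in ACLT libraries (log2 fold change 1.67 ± 0.18 (SE), adjusted p = 0.000993). Mfap5 and Mfap2, both microfibril components, rose by 3.44 and 2.40 on the log2 scale (adjusted p = 0.000625 and 0.00115). Of 15 small leucine-rich proteoglycans, which coat collagen fibrils, 9 rose and 1 fell, at a median of 1.16, and 5 rose without PLA ACLT pool A. Lum (lumican) was at 237, 75.7, 53.7 and 88.7 CPM in control and 1365, 1277, 638 and 516 CPM in ACLT libraries (log2 fold change 3.18 ± 0.31 (SE), adjusted p = 0.000794), and Aspn (asporin, which binds collagen and TGF-β) at 57.9, 12.7, 21.2 and 21.5 CPM in control and 412, 368, 160.4 and 165 CPM in ACLT libraries (log2 fold change 3.38 ± 0.39 (SE), adjusted p = 0.00156). Dcn (decorin) and Bgn (biglycan) rose by 1.98 and 1.53 on the log2 scale (adjusted p = 0.00309 and 0.00335). The 1 that fell was Chad, described with the cartilage markers.

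Matrix proteases were a second group of rises. Of 16 matrix metalloproteinase genes tested, 7 rose and 1 fell, at a median log2 fold change of 1.06. Mmp3, stromelysin-1, which cuts proteoglycans and activates collagenases, was at 9.54, 2.60, 1.58 and 3.18 CPM in control and 103, 118, 81.5 and 24.1 CPM in ACLT libraries (log2 fold change 4.36 ± 0.46 (SE), adjusted p = 0.00103), with GDF8 Ab ACLT pool B the lowest of the ACLT libraries. Mmp2, a gelatinase, was at 76.9, 73.7, 29.7 and 67.4 CPM in control and 589.7, 467, 217 and 196 CPM in ACLT libraries (log2 fold change 2.50 ± 0.24 (SE), adjusted p = 0.000726). Mmp14, the membrane protease that activates proMMP2, was at 66.96, 85.2, 63.4 and 96.2 CPM in control and 400.2, 371, 193 and 163 CPM in ACLT libraries (log2 fold change 1.77 ± 0.24 (SE), adjusted p = 0.003). Mmp19 rose by 2.23 on the log2 scale (adjusted p = 0.00236). Mmp11, stromelysin-3, was at 4.42, 6.48, 4.99 and 8.03 CPM in control and 25.5, 32.5, 7.38 and 10.5 CPM in ACLT libraries (log2 fold change 1.45 ± 0.39 (SE), adjusted p = 0.0452), where GDF8 Ab ACLT pool A lay below GDF8 Ab control pool B. Its call was held in 3 of the 8 fits that left out a library and lost without either PLA control pool (log2 fold change 1.14, adjusted p = 0.119 without A and 1.36, 0.104 without B), GDF8 Ab control pool A (1.50, 0.0722) or either PLA ACLT pool (1.32, 0.148 without A and 1.18, 0.148 without B). The list's 1 fall was Mmp25, a leukocyte metalloproteinase, at -0.58 (adjusted p = 0.0321), which was called in 2 of the 8 fits that left out a library. With the muscle level as a covariate 3 of the 7 rises were called, and the list's median was 0.84.

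The windows around the start sites of 2 of the 10 largest rises, Mmp3 and Lrrc15, show a motif of stress- and growth-factor-responsive AP-1 factors. They are printed as examples that hold the motif, while the windows of leading rises without it are not printed. They are RefSeq windows of 250 bases before to 50 after the start, from build GRCm38.p6 (chr9:7445572-7445871, plus strand, and chr16:30283205-30283504, minus strand), 5′ to 3′, with the motif TGANTCA in capitals, read on both strands since it is its own reverse complement apart from the middle base.
Mmp3: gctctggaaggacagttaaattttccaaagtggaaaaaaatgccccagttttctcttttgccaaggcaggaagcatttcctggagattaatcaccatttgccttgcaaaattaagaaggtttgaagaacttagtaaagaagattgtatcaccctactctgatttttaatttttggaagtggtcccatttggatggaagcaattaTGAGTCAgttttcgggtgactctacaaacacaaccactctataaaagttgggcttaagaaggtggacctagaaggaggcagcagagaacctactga
Lrrc15: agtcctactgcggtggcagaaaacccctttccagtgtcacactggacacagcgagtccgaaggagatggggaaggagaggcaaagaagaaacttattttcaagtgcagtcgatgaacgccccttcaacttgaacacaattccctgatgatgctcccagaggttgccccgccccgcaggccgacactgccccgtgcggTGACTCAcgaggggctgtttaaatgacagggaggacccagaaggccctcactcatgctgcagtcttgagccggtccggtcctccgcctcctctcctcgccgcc
The motif began 46 bases before the start site of Mmp3 and 53 before that of Lrrc15. Of the 10 largest rises, 7 had a window, and 3 of these held the motif in at least 1 window (the other is AW551984). The windows of C1qtnf3, Prnd, Col3a1 and Ptn held none. These are counts of genes, some with more than 1 window, and the percentages that follow count windows. Over all 32851 windows 7.81% held it, over the 1325 windows of genes that rose 7.85%, and over the 345 of genes that fell 4.35%. The motif was thus about as frequent among windows of risen genes as among all windows, and a match describes letters and not a bound site.

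Of 16 ADAMTS genes tested, 7 rose and 0 fell, at a median of 0.86, but the count was 2 without PLA ACLT pool A, 3 without PLA ACLT pool B, 3 without PLA control pool A and 4 without GDF8 Ab ACLT pool A. Adamts4, one of the main aggrecan-cutting enzymes, was at 5.02, 2.91, 2.19 and 4.95 CPM in control and 40.1, 34.99, 12.8 and 6.08 CPM in ACLT libraries (log2 fold change 2.34 ± 0.44 (SE), adjusted p = 0.0123). Its log2 difference was 3.28 under PLA and 1.41 under GDF8 Ab, and the call was lost without PLA ACLT pool A (2.11, adjusted p = 0.0574) or pool B (2.19, 0.0606). Adamts5, the other main aggrecanase, was at 29.3, 18.9, 26.3 and 25.04 CPM in control and 58.5, 59.6, 38.4 and 48.9 CPM in ACLT libraries (log2 fold change 1.04 ± 0.18 (SE), adjusted p = 0.0082). Adamts12, which cuts the cartilage protein COMP, was at 3.03, 1.07, 2.01 and 1.51 CPM in control and 13.5, 13.96, 6.29 and 7.38 CPM in ACLT libraries (log2 fold change 2.41 ± 0.35 (SE), adjusted p = 0.00385). Adamts15 was at 2.88, 2.60, 2.62 and 3.33 CPM in control and 10.2, 20.6, 5.43 and 6.43 CPM in ACLT libraries (log2 fold change 1.69 ± 0.34 (SE), adjusted p = 0.0154), and lost its call without PLA control pool A (1.58, adjusted p = 0.0546) or PLA ACLT pool A (1.75, 0.0528). No gene of the ADAMTS list was called with the muscle level as a covariate, where the list's median was 0.53.

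Inhibitors of these proteases moved in both directions. Of 12 inhibitor genes 6 rose and 1 fell. Timp1, which blocks most MMPs, was at 16.3, 7.97, 10.2 and 8.98 CPM in control and 108, 101, 63.3 and 39.1 CPM in ACLT libraries (log2 fold change 2.78 ± 0.26 (SE), adjusted p = 0.000707). Timp2 was at 373, 255, 276 and 297 CPM in control and 1085, 1027, 539.9 and 626 CPM in ACLT libraries (log2 fold change 1.40 ± 0.18 (SE), adjusted p = 0.00256). Timp4, a member of the same family found in heart and other tissues, went the other way, from 16.4, 15.4, 16.97 and 14.5 to 2.99, 5.09, 4.52 and 8.13 CPM (log2 fold change -1.69 ± 0.26 (SE), adjusted p = 0.00529). Every ACLT library was below every control library for Timp4, and with the muscle level as a covariate its log2 fold change was -1.19 (adjusted p = 0.246). Serping1, the C1 inhibitor, rose by 1.29 on the log2 scale (adjusted p = 0.00689).

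Markers of connective tissue cells were high in the ACLT libraries as a group. Of 19 fibroblast markers 14 rose and 0 fell, at a median of 1.92, and together they took 0.682, 1.37, 0.358 and 0.814% of CPM in control and 4.49, 2.53, 1.37 and 1.10% in ACLT libraries. PLA control pool B was thus level with GDF8 Ab ACLT pool A and above pool B in this summed share. Besides Lrrc15, Cthrc1 and Mfap5, given above, Ly6a, a stem and stromal cell antigen, was at 109, 61.3, 74.2 and 59.97 CPM in control and 411, 485, 247 and 259 CPM in ACLT libraries (log2 fold change 2.18 ± 0.19 (SE), adjusted p = 0.000625). With the muscle level as a covariate 7 of the 14 were called, at a median of 1.79. Of 10 tendon and ligament markers 7 rose and 0 fell, at a median of 1.61, with 4 rises without PLA ACLT pool A. With the muscle level as a covariate 0 were called, while the list's median was 1.41. Scx, the tendon transcription factor scleraxis, was at 1.99, 2.28, 1.03 and 1.36 CPM in control and 10.1, 5.83, 3.15 and 4.32 CPM in ACLT libraries (log2 fold change 1.71 ± 0.27 (SE), adjusted p = 0.00609), and Thbs4, a tendon thrombospondin, rose by 1.50 (adjusted p = 0.00811). Of 10 synovial lining markers 8 rose and 0 fell, at a median of 1.18, with 3 rises without either PLA ACLT pool. With the muscle level as a covariate 1 was called, and the list's median was 0.70. Htra4, a secreted protease, was at 87.2, 32.1, 88.9 and 61.97 CPM in control and 232, 312, 173 and 187 CPM in ACLT libraries (log2 fold change 1.81 ± 0.32 (SE), adjusted p = 0.00963). Has1, a hyaluronan synthase, was at 47.1, 16.4, 29.9 and 20.3 CPM in control and 152, 149, 72.5 and 47.05 CPM in ACLT libraries (log2 fold change 1.84 ± 0.35 (SE), adjusted p = 0.013), with the lowest ACLT library just under the highest control library. It lost its call without PLA ACLT pool A (1.71, adjusted p = 0.0607) or pool B (1.73, 0.0625). Whether more fibroblast or synovial tissue in the dissected ACLT cartilage took part in these rises was not tested.

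Macrophage genes rose, while few genes of the other blood cells were called. Of 20 macrophage and monocyte markers 14 rose and 0 fell, at a median of 0.85, with 8 rises without either PLA ACLT pool. With the muscle level as a covariate 4 were called, and the list's median was 0.66. Their summed share overlapped between limbs, at 0.952, 0.643, 0.815 and 0.867% of CPM in control and 1.09, 1.06, 0.854 and 0.959% in ACLT libraries. Gpnmb, a glycoprotein of lipid-laden and repair macrophages, was at 26.3, 18.2, 17.2 and 9.39 CPM in control and 122, 134, 57.3 and 68.03 CPM in ACLT libraries (log2 fold change 2.42 ± 0.20 (SE), adjusted p = 0.000625). Ms4a7, a membrane protein of mature macrophages, was at 9.49, 8.15, 7.54 and 8.93 CPM in control and 68.9, 85.00, 34.9 and 26.4 CPM in ACLT libraries (log2 fold change 2.50 ± 0.25 (SE), adjusted p = 0.000794). C1qb and C1qc, chains of the complement recognition protein C1q, rose by 1.57 and 1.48 on the log2 scale (adjusted p = 0.00085 and 0.00092). Neutrophil markers had 0 rises and 2 falls of 20, with 1 to 3 falls when single libraries were left out, while 1.99% of all genes fell. A positive log2 fold change was seen in 1 of the 20, against 55.0% of all genes. In 4 of them all 4 ACLT libraries lay below all 4 control libraries, against 3.51% of all genes. The list's median was -0.26, or -0.20 with the muscle level as a covariate. Of the 2 falls, 1 was Csf3r, the receptor for the neutrophil growth factor G-CSF. It was at 357, 326, 404 and 380.5 CPM in control and 235, 221, 283 and 254 CPM in ACLT libraries (log2 fold change -0.57 ± 0.10 (SE), adjusted p = 0.00811), with every ACLT library below every control library, and -0.64 (adjusted p = 0.113) with the muscle level as a covariate. The other was Ltb4r1, a leukotriene receptor (-0.43, adjusted p = 0.0462), called in 1 of the 8 fits that left out a library. None of 19 erythroid markers was called, with Hbb-bs, a hemoglobin chain, at 22629, 23503, 33096 and 25608 CPM in control and 23183, 27137, 42384 and 27401 CPM in ACLT libraries (log2 fold change 0.17 ± 0.33 (SE), adjusted p = 0.783). B cell markers had 1 rise of 20 (Ebf1, a transcription factor also found in stromal cells, 0.88, adjusted p = 0.0145), and T and NK cell markers 1 of 20 (Thy1, also a fibroblast antigen, 1.92, 0.0282). Ebf1 lost its call without PLA ACLT pool A or pool B, and Thy1 was called in 2 of the 8 fits that left out a library.

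Chemokine genes that draw monocytes were among the largest rises. Of 26 CC and CXC chemokine genes 9 rose and 0 fell, at a median of 0.84. A positive log2 fold change was seen in 25 of them, against 55.0% of all genes. Ccl2 and Ccl7, both ligands of the receptor CCR2, lie in a chemokine cluster on chromosome 11 (81926397 to 81928279 and 81936538 to 81938351, mm39). Ccl2 was at 0.596, 0.249, 0.608 and 0.252 CPM in control and 9.57, 17.5, 11.9 and 12.1 CPM in ACLT libraries (log2 fold change 4.82 ± 0.37 (SE), adjusted p = 0.000521). Ccl7 was at 0.845, 0.605, 0.487 and 0.454 CPM in control and 13.96, 25.04, 12.7 and 12.4 CPM in ACLT libraries (log2 fold change 4.61 ± 0.26 (SE), adjusted p = 7.95e-05), and its log2 difference was 4.61 under PLA and 4.60 under GDF8 Ab. Ccl8, a chemokine of the same cluster, was at 1.34, 1.17, 1.16 and 1.62 CPM in control and 17.3, 39.3, 8.82 and 18.9 CPM in ACLT libraries (log2 fold change 3.76 ± 0.37 (SE), adjusted p = 0.000794). Cxcl16, a membrane-bound chemokine, rose by 2.02 on the log2 scale (adjusted p = 0.00382). All but Cxcl16 of these were also called with the muscle level as a covariate, where Ccl2 was at 4.38 and Ccl7 at 4.43.

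Of 26 inflammatory cytokine and mediator genes 6 rose and 0 fell, at a median of 0.44. The count was 3 without GDF8 Ab ACLT pool A, GDF8 Ab control pool B or either PLA ACLT pool, and 0 with the muscle level as a covariate, where the median was -0.02. Tnfaip6, the hyaluronan-binding protein TSG-6, was at 4.72, 1.74, 1.70 and 4.24 CPM in control and 36.00, 36.00, 61.2 and 19.8 CPM in ACLT libraries (log2 fold change 3.65 ± 0.43 (SE), adjusted p = 0.00165), with GDF8 Ab ACLT pool A the highest. Il33, an alarmin, was at 2.78, 1.53, 1.03 and 1.21 CPM in control and 7.68, 5.95, 6.94 and 5.07 CPM in ACLT libraries (log2 fold change 2.02 ± 0.29 (SE), adjusted p = 0.00378). Saa3, an acute phase protein, was at 0.501, 0.178, 0.547 and 0.606 CPM in control and 4.09, 11.4, 3.18 and 4.13 CPM in ACLT libraries (log2 fold change 3.42 ± 0.50 (SE), adjusted p = 0.00419). Il6 was at 0.447, 0.463, 0.851 and 1.11 CPM in control and 0.249, 0.739, 0.868 and 1.00 CPM in ACLT libraries (log2 fold change -0.06 ± 0.42 (SE), adjusted p = 0.952). Of 21 complement genes 11 rose and 1 fell (C3, -0.45, adjusted p = 0.0294, called in 2 of the 8 fits that left out a library), at a median of 0.62, and Cfb (factor B) was at 35.7, 27.5, 22.4 and 22.9 CPM in control and 97.8, 107, 47.01 and 55.3 CPM in ACLT libraries (log2 fold change 1.44 ± 0.15 (SE), adjusted p = 0.000859). None of 23 interferon-stimulated genes was called (median -0.11), and 1 of 15 MHC class II presentation genes rose, the antigen-processing protease Ctss (1.09, adjusted p = 0.0104, lost without PLA ACLT pool A, 0.0512, or pool B, 0.0509).

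Of 40 genes of the TGF-β family, to which the antibody's target belongs, 4 rose and 0 fell, a share close to that of rises over all genes, and the median was 0.27. The count was 1 without either PLA ACLT pool and 2 without PLA control pool A. Fstl1, a secreted follistatin-like protein of mesenchymal cells, was at 87.7, 49.3, 56.01 and 77.4 CPM in control and 452, 568, 237 and 291 CPM in ACLT libraries (log2 fold change 2.47 ± 0.24 (SE), adjusted p = 0.000794). Mstn, the gene for GDF8 itself, was at 17.2, 38.1, 3.89 and 7.22 CPM in control and 1.30, 1.48, 0.47 and 8.03 CPM in ACLT libraries and was not called (log2 fold change -2.77 ± 0.84 (SE), adjusted p = 0.0642), and with the muscle level as a covariate its log2 fold change was 0.21 (adjusted p = 0.91). Acvr2b, the gene for its receptor ActRIIB, was at 5.42, 4.80, 6.20 and 7.62 CPM in control and 6.73, 4.12, 4.99 and 6.38 CPM in ACLT libraries (log2 fold change -0.12 ± 0.22 (SE), adjusted p = 0.781). Of 29 genes of the IGF axis and other growth factors 12 rose and 0 fell, at a median of 0.64, with 7 rises without either PLA ACLT pool. Igf1 was at 27.04, 16.3, 18.2 and 23.3 CPM in control and 117, 125, 64.2 and 70.7 CPM in ACLT libraries (log2 fold change 2.11 ± 0.21 (SE), adjusted p = 0.000794), and Igfbp6 and Angptl2 rose by 2.24 and 1.91 on the log2 scale (adjusted p = 0.00156 and 0.00115).

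Wnt genes moved in both directions, with 8 rises and 3 falls of 31. The rises were 3 without either PLA ACLT pool and 4 without PLA control pool A, and the falls were 1 without PLA ACLT pool B. Secreted inhibitors were found on both sides. Sfrp2 and Sfrp4, secreted frizzled-related proteins, rose, Sfrp2 from 2.14, 0.996, 0.973 and 0.959 to 23.1, 24.95, 5.60 and 11.2 CPM (log2 fold change 3.48 ± 0.35 (SE), adjusted p = 0.000794) and Sfrp4 from 49.5, 25.4, 34.5 and 30.7 to 203, 175, 121 and 132 CPM (log2 fold change 2.18 ± 0.20 (SE), adjusted p = 0.000642). Sost, the gene of the osteocyte protein sclerostin, which blocks the Wnt co-receptors LRP5 and LRP6, fell. It was at 8.75, 7.15, 9.79 and 8.98 CPM in control and 1.10, 2.76, 2.71 and 2.26 CPM in ACLT libraries, 4.07-fold lower in ACLT limbs (log2 fold change -2.02 ± 0.29 (SE), adjusted p = 0.00382). The 4 control libraries were close to each other and each was above every ACLT library, and the log2 difference was -2.15 under PLA and -1.90 under GDF8 Ab. With the muscle level as a covariate the log2 fold change of Sost was -2.19 (adjusted p = 0.0861). Ror2, a receptor for non-canonical Wnt ligands, rose by 1.68 (adjusted p = 0.00813).

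Cartilage genes were mostly not called. Of 19 chondrocyte and hyaline cartilage markers 1 rose and 1 fell. A positive log2 fold change was seen in 4 of the 19, against 55.0% of all genes. The list's median was -0.60, or -1.05 with the muscle level as a covariate. Without PLA control pool A 6 fell, and without PLA ACLT pool A none was called. Prg4, the surface lubricant lubricin, which both superficial chondrocytes and synovial lining cells make, was at 2231, 1202, 1841 and 1656 CPM in control and 6123, 6881, 3491 and 2949.6 CPM in ACLT libraries (log2 fold change 1.43 ± 0.28 (SE), adjusted p = 0.013). Its call was lost without PLA ACLT pool A (1.36, adjusted p = 0.0574) or pool B (1.29, 0.0607). Prg4 had the highest mean level of any gene of the list, although Col2a1 was above it in PLA control pool B. The summed share of the list was higher in the ACLT libraries except GDF8 Ab pool B, while its median fold change was below 0. Chad, the gene of chondroadherin, a cartilage protein that binds collagen and integrins, was at 671, 637, 771 and 591 CPM in control and 385, 414, 394 and 227 CPM in ACLT libraries, 1.92-fold lower (log2 fold change -0.94 ± 0.19 (SE), adjusted p = 0.0151). Every ACLT library was below every control library, and the call was lost only without PLA ACLT pool A (-0.97, adjusted p = 0.0542). With the muscle level as a covariate its log2 fold change was -1.51 (adjusted p = 0.0107). Acan, the gene of aggrecan, was at 84.3, 87.97, 88.9 and 60.1 CPM in control and 70.5, 70.03, 52.9 and 28.5 CPM in ACLT libraries (log2 fold change -0.60 ± 0.22 (SE), adjusted p = 0.106), and Hapln1, the link protein that holds aggrecan on hyaluronan, at 17.1, 21.2, 17.3 and 16.8 CPM in control and 14.5, 12.4, 10.2 and 4.07 CPM in ACLT libraries (log2 fold change -0.95 ± 0.29 (SE), adjusted p = 0.0682). Neither passed the test, although every ACLT library was below every control library for Hapln1. PLA control pool B stood apart in the type IX collagen gene Col9a1, at 0.696, 43.2, 1.09 and 12.9 CPM in control and 2.54, 1.98, 0.0723 and 0.402 CPM in ACLT libraries (log2 fold change -2.67 ± 1.26 (SE), adjusted p = 0.199). Acan and Hapln1 were among the 7 falls with the muscle level as a covariate, Acan at -1.26 (adjusted p = 0.029) and Hapln1 at -1.77 (0.043).

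Bone, vessel and other cell markers gave few calls. Of 19 osteoblast and osteocyte markers 1 rose (Pdpn) and 2 fell, Sost and Mepe, a mineral-regulating osteocyte protein. Mepe was at 23.2, 19.9, 19.9 and 30.7 CPM in control and 10.4, 14.5, 13.5 and 11.3 CPM in ACLT libraries (log2 fold change -0.90 ± 0.18 (SE), adjusted p = 0.0169), and its call was lost without PLA control pool A (-0.88, adjusted p = 0.0568) or PLA ACLT pool A (-0.82, 0.0701). Of 15 osteoclast markers 1 rose (Ctsk, the collagen-cutting cathepsin K, 1.10, adjusted p = 0.049) and 1 fell (Itgb3, -0.52, 0.0472), each called in 2 of the 8 fits that left out a library. In these fits the osteoblast and osteocyte list had 1 to 3 rises and the osteoclast list 0 to 2. Of 20 endothelial markers 1 rose, the transcription factor Erg (1.18, adjusted p = 0.0177), which was called in 4 of these 8 fits, and the count was 0 to 6 over them. Of 15 smooth muscle and pericyte markers 3 rose and 2 fell. The rises were 1 to 3 when single libraries were left out, and the falls were 6 without GDF8 Ab ACLT pool B and 1 to 3 without any other library. Of these, 1 rise and 1 fall were called in all 8 of these fits. These were Cspg4, the pericyte proteoglycan NG2 (1.05, adjusted p = 0.00659), and Myh11, the smooth muscle myosin. Myh11 was at 40.3, 33.1, 15.3 and 13.6 CPM in control and 14.2, 16.3, 7.41 and 8.08 CPM in ACLT libraries (log2 fold change -1.08 ± 0.15 (SE), adjusted p = 0.00318), with the GDF8 Ab control pools near the PLA ACLT pools. Of 19 adipocyte markers 0 rose and 3 fell, with 0 to 5 falls when single libraries were left out. Of 11 Schwann cell and nerve markers 1 rose (Pmp22, 1.77, adjusted p = 0.00524) and 1 fell (Ncmap, -0.85, 0.0368, called in 0 of those 8 fits), with 1 to 3 rises over those fits. Of 15 mast cell and platelet markers 2 rose, both mast cell proteases, and 2 fell. There were 0 rises without either PLA ACLT pool and 1 without PLA control pool B. The falls were 6 without GDF8 Ab ACLT pool B, 2 without GDF8 Ab control pool B and 0 without any 1 of the other 6 libraries. The protease Tpsb2 was at 0.199, 0, 0 and 0.404 CPM in control and 5.83, 1.52, 1.12 and 2.11 CPM in ACLT libraries (log2 fold change 4.09 ± 0.85 (SE), adjusted p = 0.0179), and it was lost without PLA ACLT pool A (3.57, adjusted p = 0.0763) or pool B (4.33, 0.0560).

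Muscle genes were among the largest falls. Of 38 skeletal muscle fiber markers 16 fell and 0 rose, at a median of -3.90, -6.19 under PLA and -1.41 under GDF8 Ab. The count was 33 without GDF8 Ab ACLT pool B, 29 without GDF8 Ab control pool A, 2 without PLA control pool A and 1 without any 1 of the other 5 libraries, and it was 9 after the rescaling by trimmed means. Myl3, a myosin light chain of slow fibers and heart, was at 11.3, 96.4, 2.86 and 18.1 CPM in control and 0.299, 0.117, 0.108 and 0.653 CPM in ACLT libraries (log2 fold change -5.77 ± 0.91 (SE), adjusted p = 0.00603), with no overlap. Myh7, the slow myosin heavy chain, was at 1.28, 181, 3.28 and 26.04 CPM in control and 0.249, 0, 0 and 1.18 CPM in ACLT libraries (log2 fold change -6.11 ± 1.56 (SE), adjusted p = 0.0396), with PLA control pool B far above the rest, and Actc1, an actin of heart and developing muscle, at 125, 209, 8.58 and 7.07 CPM in control and 0.698, 0.583, 1.16 and 5.47 CPM in ACLT libraries (log2 fold change -4.74 ± 1.10 (SE), adjusted p = 0.0273). Nmrk2, a muscle nicotinamide riboside kinase, Ostn, the muscle-secreted peptide osteocrin, Wnk2, Mettl21c and Rhbdl1 had log2 fold changes of -4.20, -3.99, -3.63, -3.42 and -1.97, with adjusted p from 0.0162 to 0.043. Apart from Myl3, these genes lost their calls in 3 to 7 of the fits that left out a library, and without PLA ACLT pool A all of them did, at adjusted p from 0.0528 for Ostn to 0.134 for Rhbdl1. With the muscle level as a covariate none of the 38 markers was called, and their median was 0.06, which follows from the covariate being their own mean. Muscle regeneration genes had 1 fall of 10 (Actc1), and none of 11 muscle atrophy genes was called, but without GDF8 Ab ACLT pool B 5 and 6 of them fell.

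Serpina1d, one of the mouse copies of α1-antitrypsin, an inhibitor of neutrophil elastase, fell with the muscle level as a covariate and without it. It was at 10.1, 10.9, 39.5 and 22.6 CPM in control and 5.46, 4.73, 4.66 and 2.88 CPM in ACLT libraries (log2 fold change -2.03 ± 0.39 (SE), adjusted p = 0.0134), and at -3.18 (adjusted p = 0.0115) with the covariate. The GDF8 Ab control pools were the highest, and its log2 difference was -1.04 under PLA and -3.01 under GDF8 Ab. The copies on chromosome 12 are nearly identical, so reads may be split between them and the value of a single copy is uncertain. Serpina1a and Serpina1b, of the same cluster, were not called (-2.16, adjusted p = 0.0777 and -0.82, 0.305), but were among the 7 falls with the covariate. The last of these 7 was Map3k5, a stress-activated kinase, at -1.01 with the covariate (adjusted p = 0.0428) and -0.49 (adjusted p = 0.105) without it.

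**Figure D5:**
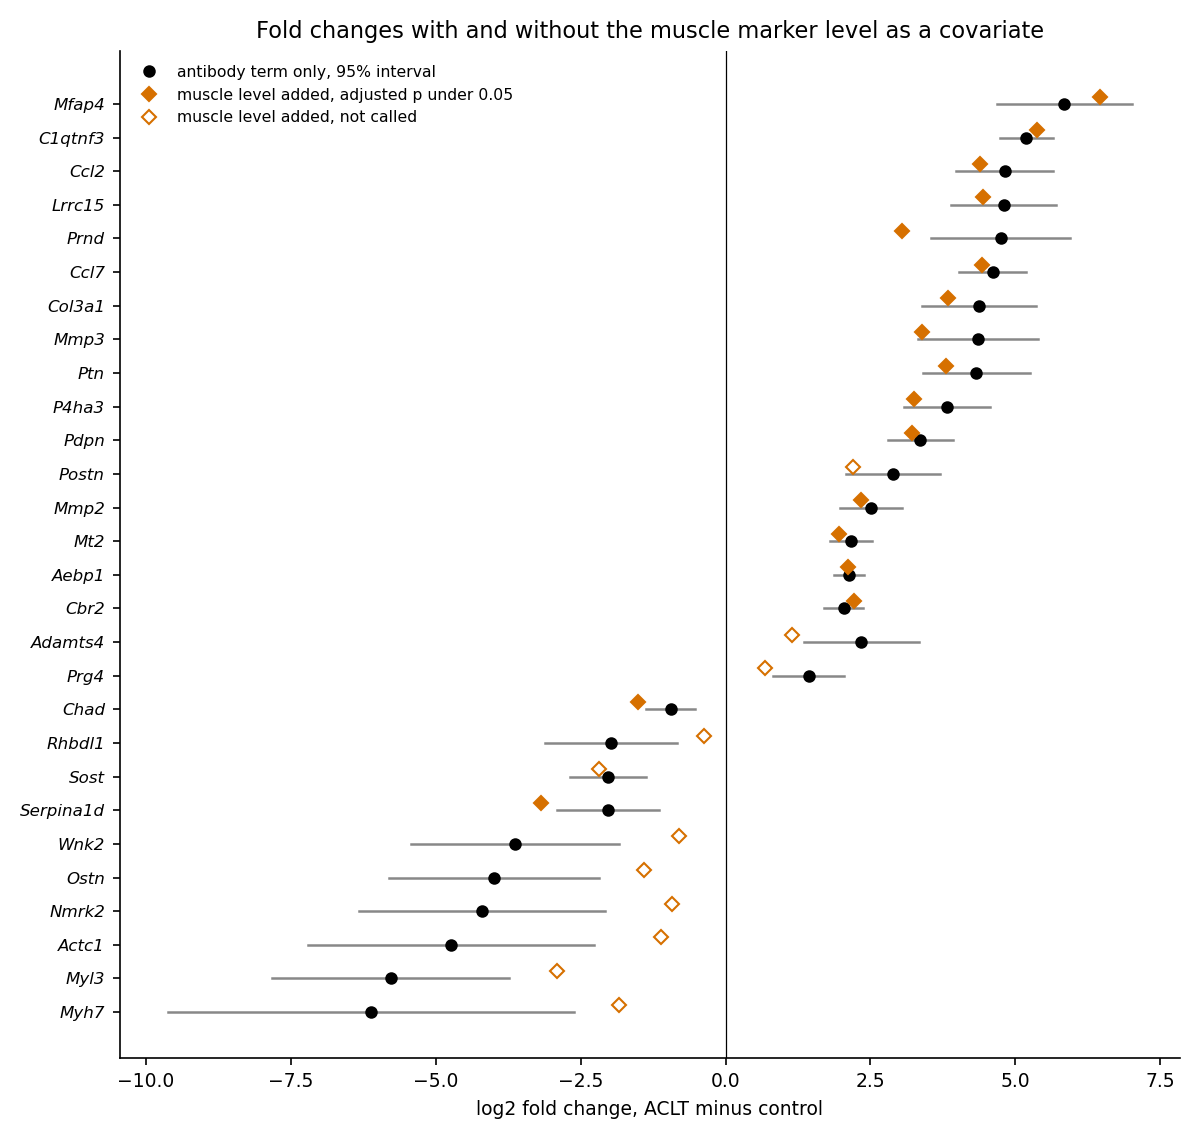
Log2 fold change of ACLT over control limbs for 28 genes from the fit with the antibody term (black, with its 95% interval) and from the fit that adds the muscle marker level (diamonds, filled where the adjusted p was under 0.05). Leading rises such as C1qtnf3 (5.19 and 5.38) and Ccl7 (4.61 and 4.43) stay in place, while the muscle genes move toward 0 (Actc1 from -4.74 to -1.12).

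Small rises ran through the genes of the ribosome. Of 57 cytosolic ribosomal protein genes 28 rose and 0 fell. All 57 had a positive log2 fold change, against 55.0% of all genes. In 52 all 4 ACLT libraries lay above all 4 control libraries, against 11.7% of all genes. The list's median was 0.45, 0.62 under PLA and 0.29 under GDF8 Ab. The count of rises was 3 without PLA ACLT pool B, 4 without PLA ACLT pool A, 13 without GDF8 Ab ACLT pool A, 15 without PLA control pool A and 18 without GDF8 Ab control pool B, and none was called with the muscle level as a covariate, where the median was 0.21. Rps28 was at 36.2, 29.8, 31.6 and 35.1 CPM in control and 58.5, 56.6, 45.7 and 51.2 CPM in ACLT libraries (log2 fold change 0.67 ± 0.12 (SE), adjusted p = 0.00888). Of 40 cell cycle genes 3 had a positive log2 fold change, at a median of -0.25, but only 1 fell and 0 rose. The fall was Foxm1, a mitotic transcription factor (-0.54, adjusted p = 0.0255). It lost its call without PLA control pool A (-0.52, adjusted p = 0.0745), GDF8 Ab control pool A (-0.55, 0.0551) or PLA ACLT pool A (-0.43, 0.0705). The nuclear genes of the respiratory chain had 2 rises and 1 fall of 62, and TCA cycle and pyruvate genes 0 rises and 1 fall of 35 (Pdk4, a kinase that shuts pyruvate oxidation, -2.68, adjusted p = 0.0373, called in 2 of the 8 fits that left out a library). In these 2 lists 16 and 2 genes had a positive log2 fold change. Their medians were -0.17 and -0.45, or 0.23 and 0.13 with the muscle level as a covariate. However, without GDF8 Ab ACLT pool B, the ACLT library with the highest muscle share, 26 genes fell in each of these lists.

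Genes of secretion and of glycosaminoglycan metabolism rose in part. Of 26 genes of the unfolded protein response and secretion 8 rose and 0 fell, with 2 rises without either PLA ACLT pool, 3 without PLA control pool A, 4 without GDF8 Ab ACLT pool A and 5 without PLA control pool B. Kdelr3, which returns proteins to the endoplasmic reticulum, was at 14.9, 15.2, 6.75 and 12.3 CPM in control and 65.5, 59.7, 27.9 and 28.7 CPM in ACLT libraries (log2 fold change 1.84 ± 0.19 (SE), adjusted p = 0.000898). Ddit3, the stress factor CHOP, rose by 1.18 on the log2 scale (adjusted p = 0.00557). Of 58 genes that make or break glycosaminoglycans 12 rose and 0 fell, with 3 rises without PLA ACLT pool B, 5 without PLA ACLT pool A and 7 without GDF8 Ab ACLT pool A. Chpf, a chondroitin polymerising factor, and Sulf2, which trims sulfate from heparan sulfate, rose by 1.32 and 1.14 (adjusted p = 0.00483 and 0.00702). Of 23 immediate early genes 3 rose and 0 fell, with 1 rise without either PLA ACLT pool and 8 without GDF8 Ab ACLT pool B. Their median was 0.38, or -0.05 with the muscle level as a covariate. Fosl1, a subunit of AP-1, was at 0.0526, 0, 0 and 0 CPM in control and 0.779, 1.11, 1.75 and 0.328 CPM in ACLT libraries (log2 fold change 3.91 ± 0.65 (SE), adjusted p = 0.00734), and Atf3, a stress-induced factor, rose by 0.99 (adjusted p = 0.0148) but lost its call without PLA ACLT pool A (0.0652) or pool B (0.0571).

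The limb term is the average of the differences under PLA and under GDF8 Ab, so called genes tend to have the same sign under both. All 1441 rises and all 347 falls did, but the sizes differed. The log2 difference was larger under PLA in 1350 of the rises and 280 of the falls, and this was not counted over all genes. Medians were 1.43 under PLA and 0.73 under GDF8 Ab for the rises, and -0.78 and -0.55 for the falls. Over all genes tested the medians were 0.17 under PLA and -0.04 under GDF8 Ab. Fits within 1 antibody called 1731 rises and 773 falls in the 4 PLA libraries, and 80 rises and 1 fall in the 4 GDF8 Ab libraries. All 80 of these rises were among the 1441. In the GDF8 Ab libraries alone, 7 of 19 fibroblast markers, 7 of 20 macrophage markers, 3 of 38 collagen chains and 2 of 26 chemokines rose. This is against 80 of all 17401 genes tested. None of 16 ADAMTS genes rose, which at so low a share over all genes says nothing particular about them. The muscle share was below that of every control library in both PLA ACLT pools but in only 1 GDF8 Ab ACLT pool, and its part in the smaller GDF8 Ab differences was not tested. The interaction of antibody and limb, tested for each gene, called 0 genes (0.0% of the 17401), with a smallest adjusted p of 0.432 (limma) and 1799 genes at an unadjusted p under 0.05. A fit with the pool letter as a block called 1 gene, and leaving out GDF8 Ab ACLT pool A gave 305. At 2 pools per group the sizes under PLA and GDF8 Ab are therefore given as values, and no gene was shown to differ between the antibodies.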

How the data were processed

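Cartilage RNA of 8 pools was extracted by the authors (TRI Reagent, then a spin column) and sequenced at a company. The CPM values were deposited by the authors as 1 table of 20539 genes, each column adding up to 1e+06. Among tools, the submitters' processing notes list DESeq2, Partek and STAR 2.7.3a, and as genome builds mm39 and mm10, with no role for any of them. Of the 20494 identifiers found in GENCODE M21 (GRCm38), 98.3% had the same length but 2.23% the same start, so the coordinates are printed as those of mm39, the other build named. The gene counting and its use of strand were not given in the sources used here.

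The depth was read from the smallest step between CPM values of a library (16.4 to 28.1 M, median 20.1 M, where M is 1e+06 reads). Whole numbers of reads (tolerance 0.02) were found for 69.7 to 75.4% of the values below 200 reads, so whole reads were not recovered and no count test was run. The log2 was taken of CPM times the median depth plus 1 read (0.0498 CPM), for genes that averaged 10 reads (0.498 CPM) or more. Fold changes on this scale understate those of low genes. The model had a limb and an antibody term and was fitted with limma 3.58.1 in R 4.3.3 (moderated by eBayes along the intensity trend, with 4.51 prior degrees of freedom beside 5 residual ones, and Benjamini-Hochberg adjustment over 17401 genes, threshold 0.05), and the interaction was tested in a model of 4 group means. The covariate fit added the mean log2 level of the 38 muscle fiber markers, which is itself lower in most ACLT libraries. The method was tested on simulated data. Summaries, promoter windows and plots used pandas 2.3.3, numpy 2.4.6 and matplotlib 3.10.9 under Python 3.11.15.

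Named genes were the 10 largest rises and 10 largest falls that reached an average of 5 CPM in the higher limb and had no overlap of the limbs, the 10 smallest adjusted p (ties by unadjusted p), up to 8 rises and 8 falls that were also called with the covariate, Adamts4, Adamts12, Mmp2, Mmp11, Mmp14 and Postn, and from each list up to 4 members of smallest adjusted p (or 2 of highest level). Acan, Acvr2b, C3, Col1a1, Col2a1, Col6a3, Col9a1, Hapln1, Il6, Map3k5, Mmp25, Mstn, Serpina1a, Serpina1b, Thbs1 and the genes of the closing section were named outside this rule with their values seen. The comparison, its members and the 42 gene lists were chosen with earlier results of these data known. Of 966 genes in the lists, 52 stood in more than 1. Alternatives were other pseudocounts and filters, rescaling, quantile normalization, fits without a trend, with robust estimates, with replicate blocks, with the muscle covariate, without the antibody term, of 4 group means, within 1 antibody and without each library. A fit that dropped the control and the ACLT library of highest muscle share was added after seeing the data.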

Additional observations from a re-analysis of the deposited data

Results flagged for a closer look

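In each limb, the 4 libraries were searched for 1 value that stood apart from the other 3 by Dixon's 95% criterion, over marker shares and part of the named genes. Of 102 such groups 15 had one. The criterion flags about 1 in 20 groups by chance when the 4 values come from 1 normal distribution. Here the values were CPM and shares without a log, and each group held both antibodies. That rate need not apply, so the 15 were not read as an excess. Several items are muscle genes whose values moved together, so the 15 are not independent of each other. GDF8 Ab ACLT pool B was the library that stood apart most often among ACLT libraries, and PLA control pool B among control libraries.

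GDF8 Ab ACLT pool B was the high library for the muscle fiber share (4.37% of CPM against 0.321% in the next ACLT library), Actc1 (5.47 CPM), Nmrk2 (15.1 CPM), Wnk2 (5.42 CPM) and Rhbdl1 (4.02 CPM), and the low one for Chad (227 CPM against 385 CPM in the next). PLA control pool B was the high library for Myh7 (180.5 CPM against 26.0 CPM), Myl3 (96.4 CPM), Wnk2 (29.5 CPM) and Rhbdl1 (12.3 CPM), and the low one for the neutrophil share (3.35% of CPM).

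Among the rises, Ccl7 was high in PLA ACLT pool B (25.04 CPM against 13.96 CPM in the next ACLT library), and Col3a1 was high in PLA control pool A (628 CPM against 183 CPM), which was still below all ACLT libraries. The T and NK cell share was low in PLA ACLT pool A (0.0158% of CPM), and the adipocyte share was low in GDF8 Ab control pool A (0.178%).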

How the results depend on the processing

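No called gene named by the rule changed sign under any setting run, while the medians of 16 of the 42 lists did under at least 1 setting, 11 of them with the muscle covariate (muscle fiber markers to 0.06), 5 within the GDF8 Ab libraries and 3 without the control and ACLT libraries of highest muscle share. The number of rises moved from 1441 to 906 without the intensity trend, to 1884 with 4 group means, to 83 with the muscle covariate and to 80 in the GDF8 Ab libraries alone, and was 500 to 1765 when single libraries were left out. The number of falls moved from 347 to 679 after rescaling, 526 after quantile normalization, 87 without the trend, 7 with the muscle covariate, 175 without the antibody term, 681 with 4 group means, 773 in the PLA libraries alone, 1 in the GDF8 Ab libraries alone and 1148 when the control and the ACLT library of highest muscle share were dropped, and was 29 to 1041 when single libraries were left out. The cause of these moves was not tested, and the fits that leave libraries out also had fewer samples. The interaction called 0 genes, 1 with a block by pool letter and 0 to 305 when single libraries were left out, 305 being without GDF8 Ab ACLT pool A. Of the 137 named genes 131 were called, and under both pseudocounts each of the 137 stayed called or not called as before. Of the 131 calls, 87 were lost with the muscle covariate and 96 in the GDF8 Ab libraries alone.

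Equal pool letters were not shown to pair the samples: the correlation of the differences between pools B and A ranged from 0.00324 to 0.296 over the 6 pairs of groups, and from -0.296 to 0.209 by title number. With the letter as a replicate block 1339 genes rose and 398 fell, with the letter within each antibody 1029 and 236, and with the title number 1132 and 165.

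Shares and folds of genes near the 10-read minimum are limited by counting, and 2 pools per group limit the tests of each antibody alone.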

Other observations

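Of the 347 falls, 19 were called in every fit that left out 1 library, and several of these are genes of leukocytes and of the cytoskeleton. They were chosen after their values were seen and are described without a test of their own. None of those whose values follow in this section was called with the muscle level as a covariate (limma, adjusted p from 0.207 to 0.314). In that fit their log2 fold changes were -0.60 to -0.44. Itgal, the αL integrin chain of leukocytes, was at 169, 134, 163 and 174 CPM in control and 93.9, 83.6, 115 and 115 CPM in ACLT libraries (log2 fold change -0.65 ± 0.11 (SE), adjusted p = 0.00809). Pram1, an adaptor protein of myeloid cells, was at 121, 129, 157 and 161 CPM in control and 87.6, 77.3, 102 and 113 CPM in ACLT libraries (log2 fold change -0.59 ± 0.09 (SE), adjusted p = 0.00645). Together with Csf3r these are genes of neutrophils and other leukocytes, but the summed share of the 20 neutrophil markers overlapped between the limbs. Of these 20 markers, 1 had a positive log2 fold change. Of adhesion and cytoskeleton genes, Tln1 (talin-1, which activates integrins) was at 714, 703, 756 and 691 CPM in control and 401, 430.0, 509 and 525 CPM in ACLT libraries (log2 fold change -0.63 ± 0.11 (SE), adjusted p = 0.00917), and Pxn (paxillin, a focal adhesion adaptor) at 166, 164, 178 and 163 CPM in control and 107, 106, 120.4 and 129 CPM in ACLT libraries (log2 fold change -0.54 ± 0.09 (SE), adjusted p = 0.00849). The log2 fold change was -0.76 (adjusted p = 0.0105) for Nup210, a nuclear pore protein, and -0.52 (0.0096) for Mrtfa, an actin-regulated transcription factor.

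The mitochondrial genome held 2 further falls of this kind, both encoding subunits of respiratory complex I. The gene mt-Nd6 (mitochondrial chromosome, 13552 to 14070, mm39) was at 334, 349, 267 and 327 CPM in control and 185, 157, 156 and 202 CPM in ACLT libraries (log2 fold change -0.87 ± 0.13 (SE), adjusted p = 0.00433). The gene mt-Nd4l (9877 to 10173) was at 117, 126, 91.4 and 101 CPM in control and 42.03, 39.6, 34.6 and 68.5 CPM in ACLT libraries (log2 fold change -1.27 ± 0.21 (SE), adjusted p = 0.00689). With the muscle level as a covariate the log2 fold change was -0.55 for mt-Nd6 and -0.60 for mt-Nd4l. GDF8 Ab ACLT pool B was the highest ACLT library for both genes. By the table's coordinates each overlaps a neighbour (mt-Nd5, 11742 to 13565, and mt-Nd4, 10167 to 11544), and mt-Nd6 lies on the other strand, so reads of the overlaps cannot be assigned without knowing the strand setting.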
